A study of Mus musculus with 30 samples.

Results

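Messenger RNA of 5 enzymes of the pentose phosphate pathway and NADPH production was followed in C2C12 cells differentiating with and without hexavalent chromium, Cr(VI). The enzymes were G6pdx, Pgd, Taldo1 and Tkt of the pentose phosphate pathway and the cytosolic malic enzyme Me1. They were chosen by name, with earlier results of these data known, from a table of 48709 genes. All 5 were measured in every library. C2C12 is an established line of mouse myoblasts, muscle precursor cells that stop dividing and fuse into myotubes when serum is lowered. The cells carried no stated genetic change. They were grown in medium with fetal bovine serum, and differentiation began with a change to horse serum. Potassium chromate, at 0, 2 or 5 µM, went into this second medium. RNA was sequenced at differentiation day 0, with 0 µM only, and at days 1, 2 and 4 with each dose. This made 10 groups of 3 libraries labelled as biological replicates, 30 libraries in all. The labels do not say whether replicates came from separate cultures, so p-values measure the spread between these libraries. Values are in CPM, read counts scaled to library size by the authors, with means ± SD of 3 libraries.

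The pentose phosphate pathway leaves glycolysis at glucose 6-phosphate. Its oxidative arm makes NADPH and a pentose phosphate, with G6pdx (glucose-6-phosphate dehydrogenase) at the first and committed step and Pgd (6-phosphogluconate dehydrogenase) at the later NADPH-yielding step. Its reversible non-oxidative arm, run by Tkt (transketolase) and Taldo1 (transaldolase), joins the pentose phosphates to glycolysis. Me1 makes NADPH from malate outside the pathway. NADPH supplies electrons to glutathione and thioredoxin reductases and to the synthesis of fatty acids, sterols and deoxynucleotides. Genes of this kind are known targets of NRF2 (encoded by Nfe2l2), a transcription factor that binds antioxidant response elements and is held back by Keap1.

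Promoter sequence was set beside the values because all 5 genes were higher at 5 µM Cr(VI) than without it on day 4. RefSeq start sites (GRCm38.p6) matched all 5 genes and gave 7 windows of 300 bases, from 250 before a start to 50 after it, with 2 windows each for Pgd and Me1. Both strands were searched for TGACNNNGC, the core of the antioxidant response element, for TGANTCA, the AP-1 element, for CAGCTG, an E-box read by myogenic factors, and for GGGCGG, a GC box. TGACNNNGC and TGANTCA can overlap. The antioxidant core was present in 3 of the 7 windows, 1 each of G6pdx, Pgd and Me1, and in 12.4% of the 32851 RefSeq promoter windows of that length. Those 3 windows are printed with the match in capitals, and the Tkt window is printed because Tkt changed most under Cr(VI). All are 5′ to 3′ on the gene's own strand.
G6pdx chrX:74428831-74429130, minus strand: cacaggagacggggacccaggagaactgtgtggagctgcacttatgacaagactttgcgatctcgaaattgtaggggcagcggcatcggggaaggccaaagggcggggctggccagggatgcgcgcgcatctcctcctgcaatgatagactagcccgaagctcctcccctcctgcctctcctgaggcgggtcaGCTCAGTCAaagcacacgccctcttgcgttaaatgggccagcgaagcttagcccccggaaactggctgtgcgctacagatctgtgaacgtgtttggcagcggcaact
Pgd chr4:149166033-149166332, minus strand: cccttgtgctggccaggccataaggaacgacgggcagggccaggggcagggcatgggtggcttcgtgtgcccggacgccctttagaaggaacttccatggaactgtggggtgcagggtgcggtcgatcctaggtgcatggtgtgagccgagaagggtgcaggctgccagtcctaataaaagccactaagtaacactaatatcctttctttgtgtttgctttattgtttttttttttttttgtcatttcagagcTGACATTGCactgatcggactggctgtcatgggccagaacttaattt
Me1 chr9:86695865-86696164, minus strand: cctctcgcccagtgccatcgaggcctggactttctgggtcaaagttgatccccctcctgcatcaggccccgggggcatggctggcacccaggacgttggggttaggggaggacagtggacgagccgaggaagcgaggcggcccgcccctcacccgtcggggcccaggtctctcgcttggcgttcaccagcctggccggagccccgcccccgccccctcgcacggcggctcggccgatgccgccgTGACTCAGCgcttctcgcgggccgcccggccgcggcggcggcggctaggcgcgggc
Tkt chr14:30548881-30549180, plus strand: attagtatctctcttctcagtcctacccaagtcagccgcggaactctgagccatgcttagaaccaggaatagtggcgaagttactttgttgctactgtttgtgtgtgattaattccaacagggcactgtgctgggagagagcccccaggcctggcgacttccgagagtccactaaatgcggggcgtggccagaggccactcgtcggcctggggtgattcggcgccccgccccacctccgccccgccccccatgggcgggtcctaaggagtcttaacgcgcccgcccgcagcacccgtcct
Counted from the start base as 0, the match began at base -57 in G6pdx, where it lies on the opposite strand, at base 3 in the second Pgd window and at base -6 in Me1. The Pgd match thus lies past that start, in sequence transcribed from it, and not upstream of it. The Me1 match also held TGANTCA, present in 7.81% of all windows. No match to TGACNNNGC was found in the single windows of Tkt and Taldo1 or in the other windows of Pgd and Me1. The GC box, found in 35.7% of all windows, was in at least 1 window of all 5 genes. CAGCTG was found, among the 5 genes, in Taldo1 at base 43, against 16.3% of all windows.

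In each of a pair of day 1 libraries, summed markers of other cell types lay far above those of the other 28. In replicate 1 of the 2 µM group, 10 adipocyte markers summed to 4330 CPM, against 27.5 to 141 CPM in the 28, with 9 of the 10 at 1 CPM or more. In the 28, 2 to 3 of the 10 reached that level, among them Car3 (21.6 to 124 CPM) and Lpl (4.69 to 46.6 CPM). In replicate 3 of the 5 µM group, 8 lung markers summed to 384 CPM and 8 leukocyte markers to 324 CPM, against at most 0.941 and 1.26 CPM in the 28. Endothelial markers summed to 31.8 and 25.8 CPM in the pair and to at most 3.95 CPM elsewhere. Myoblast and muscle markers were present in every library, with sums of 1000 to 14700 CPM in the 28 and of 2480 and 1710 CPM in the pair. Results are given without both libraries where that changes a call. In bulk RNA, fewer cells of a type and less RNA per cell cannot be told apart. Libraries held 18462092 to 26947109 reads, and the lowest value of a member was 169 reads, for Tkt.

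Without Cr(VI), mRNA of 4 of the 5 enzymes fell between day 0 and day 4, and Taldo1 did not change detectably. G6pdx fell most, to 8.91% of its day 0 mean. Tkt fell to 17.9%, Pgd to 44.7% and Me1 to 53.7%, while Taldo1 stood at 103%. Differences were tested with limma on log2(CPM + 1) over 12946 genes, and the threshold for a call was a p below 0.05 after Benjamini-Hochberg adjustment. In this comparison 29.5% of all genes tested were called lower.

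G6pdx measured 187, 182 and 195 CPM in the 3 libraries of day 0. It measured 95.4, 108 and 87.5 CPM on day 1, 38.9, 40.9 and 44.6 CPM on day 2, and 15.6, 16.8 and 17.8 CPM on day 4. The libraries of each day lay wholly below those of the day before. The steps were -0.95, -1.20 and -1.26 on the log2 scale (limma adjusted p = 9.3e-08, 3.0e-09 and 1.8e-09), and the whole course came to -3.41 (SE 0.13, adjusted p = 3.3e-22).

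Pgd, the second NADPH-yielding dehydrogenase, measured 346, 363 and 294 CPM on day 0 and 223, 255 and 235 CPM on day 1. It then measured 164, 148 and 154 CPM on day 2 and 147, 164 and 137 CPM on day 4. No further fall was called after day 2, and the values of days 2 and 4 overlapped. The steps were -0.49 and -0.61 on the log2 scale up to day 2 (limma adjusted p = 1.6e-04 and 1.9e-05), with -0.06 (95% interval -0.27 to 0.15) from day 2 to day 4.

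Tkt was called lower from day 2 on. It measured 57.9, 66.9 and 52.8 CPM on day 0 and 46.1, 66.4 and 39.8 CPM on day 1, values that overlapped (-0.24, 95% interval -0.65 to 0.16). On day 2 it measured 18.0, 16.3 and 19.4 CPM, and on day 4 it measured 8.49, 12.4 and 10.9 CPM. Day 2 lay below every library of day 1 (-1.43, SE 0.20, limma adjusted p = 1.1e-06), and day 4 below every library of day 2 (-0.71, adjusted p = 0.0073). The last step was no longer called without replicate 1 of day 4 (-0.58, adjusted p = 0.06). From day 0 to day 4 Tkt fell by 2.38 (adjusted p = 2.2e-12).

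Taldo1, the other enzyme of the non-oxidative arm, was level. Its 12 libraries without Cr(VI) lay between 100 and 125 CPM, with group means of 111 ± 11.1, 114 ± 8.93, 115 ± 5.68 and 114 ± 1.61 CPM on days 0, 1, 2 and 4. The day 4 change from day 0 was 0.04 on the log2 scale, with a 95% interval from -0.16 to 0.24. Me1 measured 131, 127 and 138 CPM on day 0 and 102, 106 and 96.9 CPM on day 1. It measured 73.9, 80.1 and 70.3 CPM on day 2 and 74.6, 77.1 and 60.9 CPM on day 4. The ranges of days 0, 1 and 2 did not overlap, and those of days 2 and 4 did. Me1 fell by 0.89 over the course (SE 0.16, limma adjusted p = 1.8e-05), while its single steps of -0.37 and -0.44 missed the threshold (adjusted p = 0.061 and 0.0517). Both steps passed when the 2 libraries with extra transcripts, which enter the common estimate of the spread, were left out (adjusted p = 0.0017 and 7.1e-04).

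The fall thus came in different steps. By day 1, G6pdx and Pgd were called lower, against 22.7% of all genes. From day 1 to day 2, G6pdx, Pgd and Tkt were, against 9.42%. From day 2 to day 4, G6pdx and Tkt were, against 14.1%.

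**Figure D1:**
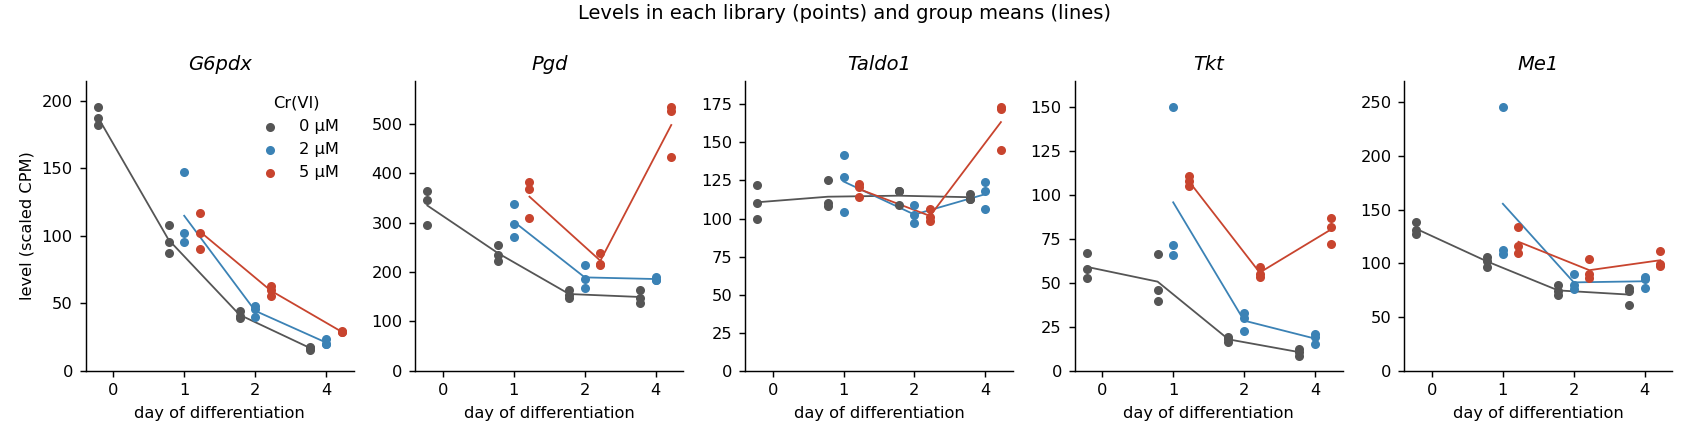
Scaled CPM of the 5 enzymes in each library (points, linear axis from 0) by day of differentiation, evenly spaced, and Cr(VI) dose, with lines through the group means. G6pdx, Pgd, Tkt and Me1 decline without Cr(VI), Taldo1 stays between 100 and 125 CPM, and at day 4 the 5 µM libraries lie above the 0 µM libraries for all 5 genes.

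At day 4, all 5 enzymes were higher with 5 µM Cr(VI) than without it, and for each of them the 3 treated libraries lay above all 3 untreated ones. Of all genes tested, 27.3% were called higher in this comparison. The median change of the 5 was 0.75 on the log2 scale, against -0.01 over all genes tested. The changes ran from 2.82 log2 units for Tkt, 7.06-fold on the log2(CPM + 1) scale, to 0.53 for Me1 and 0.51 for Taldo1.

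Tkt measured 72.3, 87.0 and 81.7 CPM at 5 µM on day 4, against 8.49, 12.4 and 10.9 CPM without Cr(VI). The groups were far apart, and the change of 2.82 (SE 0.20, limma adjusted p = 7.2e-14) ranked 50th from the top of the 12946 genes. Tkt was already higher on day 1, at 111, 105 and 108 CPM against 46.1, 66.4 and 39.8 CPM (1.11, adjusted p = 1.4e-04). On day 2 it measured 55.4, 53.5 and 58.9 CPM against 18.0, 16.3 and 19.4 CPM (1.59, adjusted p = 1.4e-07). On each of the 3 days the treated libraries lay above the untreated ones.

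Pgd measured 433, 533 and 526 CPM at 5 µM on day 4, against 147, 164 and 137 CPM without Cr(VI). The change was 1.73 (SE 0.10, limma adjusted p = 6.0e-16). Its earlier changes were smaller, with 367, 381 and 309 CPM against 223, 255 and 235 CPM on day 1 (0.56, adjusted p = 1.3e-04) and 214, 216 and 238 CPM against 164, 148 and 154 CPM on day 2 (0.52, adjusted p = 2.1e-04). The groups did not overlap on any of these days. On day 1 the lowest of the treated values, 309 CPM, came from the library with lung and leukocyte transcripts.

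G6pdx, the gate of the oxidative arm, changed less than Pgd on days 1 and 4 and alike on day 2 (0.51 and 0.52). On day 1 its values of 102, 117 and 90.4 CPM at 5 µM overlapped the 95.4, 108 and 87.5 CPM without Cr(VI) (0.08, 95% interval -0.17 to 0.34). On day 2 they were 59.7, 62.9 and 55.6 CPM against 38.9, 40.9 and 44.6 CPM (0.51, limma adjusted p = 0.0025). On day 4 they were 28.4, 29.4 and 29.0 CPM against 15.6, 16.8 and 17.8 CPM (0.75, SE 0.13, adjusted p = 4.7e-06). The groups separated from day 2 on, at levels that kept falling with time at both doses.

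Taldo1 measured 145, 173 and 172 CPM at 5 µM on day 4, against 113, 113 and 116 CPM without Cr(VI) (0.51, SE 0.10, limma adjusted p = 4.1e-05). This was the only one of the 3 days on which it was called. On day 1 the treated libraries measured 114, 123 and 121 CPM, within the range of the untreated ones (0.06). On day 2 they measured 98.1, 101 and 106 CPM, below the untreated 118, 109 and 118 CPM in every library, with a difference that missed the threshold (-0.18, adjusted p = 0.20). Me1 likewise was called on day 4 only, at 97.9, 99.6 and 111 CPM against 74.6, 77.1 and 60.9 CPM (0.53, SE 0.16, adjusted p = 0.0062). Its differences on days 1 and 2 were 0.23 and 0.32 (adjusted p = 0.41 and 0.17), and the day 2 difference passed without the 2 libraries with extra transcripts (adjusted p = 0.013).

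By day, then, the enzymes called higher at 5 µM were Pgd and Tkt on day 1, against 4.29% of all genes. On day 2 they were G6pdx, Pgd and Tkt, against 10.2%. On day 4 they were all 5. The calls of day 4 held under every alternative run, leaving out any 1 library included. Muscle markers moved with the same comparison. Their sum was 13000 to 14700 CPM without Cr(VI) and 5060 to 5910 CPM at 5 µM on day 4, and its part in the enzyme values was not tested.

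**Figure D2:**
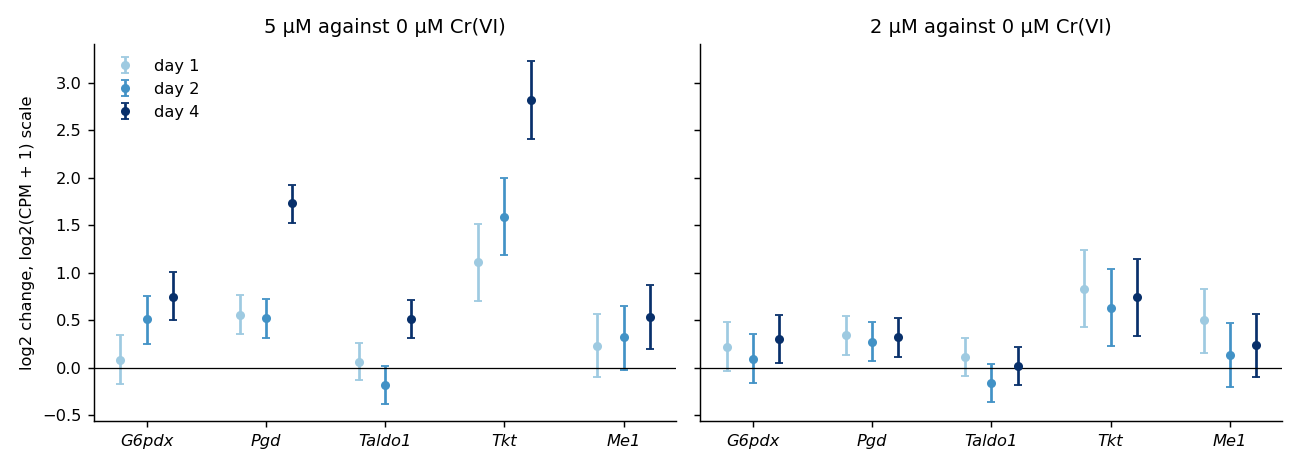
Log2 change of each enzyme at 5 µM (left) and 2 µM (right) against 0 µM Cr(VI) on days 1, 2 and 4, on the log2(CPM + 1) scale, with 95% intervals from limma. Tkt and Pgd reach 2.82 and 1.73 at 5 µM on day 4, and no change at 2 µM exceeds 0.83.

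Whether the effect of 5 µM Cr(VI) itself grew with time was tested as a difference of differences in the same limma fit. From day 1 to day 4 it grew for 4 enzymes, by 1.71 for Tkt (SE 0.28, adjusted p = 1.5e-05), 1.17 for Pgd (SE 0.14, adjusted p = 1.1e-07), 0.67 for G6pdx (SE 0.18, adjusted p = 0.0037) and 0.45 for Taldo1 (SE 0.14, adjusted p = 0.013), against 16.5% of all genes called in that direction. The Taldo1 growth was no longer called after quantile normalization (0.30, adjusted p = 0.13). From day 2 to day 4 it grew for Tkt, Pgd and Taldo1, against 12.5% of all genes. From day 1 to day 2 the limma fit called 0 of the 5, against 5.8% of all genes called in either direction, as did edgeR and DESeq2. G6pdx alone had an unadjusted p below 0.05, with a log2 change of 0.42 (limma unadjusted p = 0.023, adjusted p = 0.19). For Me1 the growth from day 1 to day 4 was 0.30, with an interval from -0.17 to 0.78, so neither growth nor its absence was shown. No such growth was called for 2 µM. For that dose limma, edgeR and DESeq2 each called 0 of the 5 between any pair of days, and 0 had an unadjusted p below 0.05. Of all genes, limma called a change of the 2 µM effect for 0% from day 1 to day 2, 0.263% from day 2 to day 4 and 1.71% from day 1 to day 4. For the first of these edgeR called 0 genes and DESeq2 called 56.

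Treated cells were also set against day 0 myoblasts. After 1 day at 5 µM, Tkt was above its day 0 level (0.86, limma adjusted p = 5.3e-04) and G6pdx below it (-0.87, adjusted p = 5.3e-07), with 25.8% of all genes called higher and 24.1% lower. On day 2 at 5 µM, G6pdx (-1.65), Pgd (-0.58) and Me1 (-0.49) were lower, against 24.5% of all genes, and Tkt was not (-0.08). The Me1 call was lost without treated replicate 2 (-0.44, adjusted p = 0.0514). Cells at 5 µM on day 4 had more Pgd (0.57, limma adjusted p = 9.9e-06) and more Taldo1 (0.55, adjusted p = 9.4e-06), against 33.5% of all genes called higher. G6pdx was lower (-2.66, adjusted p = 5.0e-19), against 29.7% called lower. In percent of the day 0 mean, Pgd stood at 149%, Taldo1 at 147%, Tkt at 136%, Me1 at 77.8% and G6pdx at 15.4%. The differences of Tkt (0.44, adjusted p = 0.057) and Me1 (-0.36, adjusted p = 0.056) missed the threshold, and both passed without the 2 libraries with extra transcripts (adjusted p = 0.016 and 0.0016).

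At 2 µM on day 4, G6pdx (-3.11), Tkt (-1.64), Pgd (-0.84) and Me1 (-0.66) were lower than on day 0, against 28.3% of all genes, and Taldo1 was not called (0.07).

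At 5 µM the steps between days differed in direction. From day 1 to day 2 at 5 µM, G6pdx, Pgd and Tkt fell by 0.78, 0.66 and 0.94 (limma adjusted p = 1.3e-05, 7.0e-06 and 6.5e-04), against 7.99% of all genes called lower. Me1 changed by -0.35 (adjusted p = 0.13), and without the 2 libraries with extra transcripts it was called lower (-0.41, adjusted p = 0.006). From day 2 to day 4, Pgd rose by 1.15 (adjusted p = 4.2e-11) and Taldo1 by 0.67 (adjusted p = 1.1e-06), against 21% of all genes called higher. G6pdx fell by a further 1.01 (adjusted p = 5.5e-08), with 20.3% of all genes called lower. The Tkt rise of 0.51 (adjusted p = 0.039) was lost when any library of day 2, or replicate 2 or 3 of day 4, was left out (0.45 to 0.55, adjusted p = 0.057 to 0.12). At 2 µM, G6pdx (-1.33), Tkt (-1.63), Pgd (-0.67) and Me1 (-0.80) were lower on day 2 than on day 1, against 8.96% of all genes. The Me1 change was -0.42 (limma adjusted p = 0.0052) without replicate 1 of day 1, the library with adipocyte transcripts. From day 2 to day 4 at 2 µM, Pgd (-0.02), Me1 (0.02) and Taldo1 (0.17) were not called. In that step G6pdx (-1.05) and Tkt (-0.61) were lower, against 13.1% of all genes. This Tkt call was lost without replicate 2 or 3 of day 2 or replicate 1 of day 4 (-0.56, -0.50 and -0.48).

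At 2 µM the differences from untreated cells were small. On day 4, Tkt measured 15.2, 20.7 and 19.1 CPM against 8.49, 12.4 and 10.9 CPM (0.74, limma adjusted p = 0.015). Pgd measured 190, 183 and 184 CPM against 147, 164 and 137 CPM (0.32, adjusted p = 0.0452). For both genes all 3 treated libraries lay above the untreated ones, and 5.11% of all genes were called higher. These calls hung on single libraries. Tkt was not called without untreated replicate 1 (0.60, adjusted p = 0.11) or treated replicate 2 or 3 (0.65 and 0.71, adjusted p = 0.079 and 0.0549). Pgd was not called without untreated replicate 1 or 3 (0.31 and 0.25, adjusted p = 0.12 and 0.17) or any treated replicate (0.30 to 0.33, adjusted p = 0.087 to 0.13). The other day 4 differences were 0.30 for G6pdx (95% interval 0.05 to 0.56, adjusted p = 0.14), 0.02 for Taldo1 and 0.24 for Me1.

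On day 1 at 2 µM, Tkt was the only enzyme called, at 150, 71.8 and 66.0 CPM against 46.1, 66.4 and 39.8 CPM (0.83, limma adjusted p = 0.019), where 0.518% of all genes were called higher. The 150 CPM came from replicate 1, the library with adipocyte transcripts. Without it the difference was 0.46 (adjusted p = 0.31), and it was also not called without untreated replicate 1 or 3 (0.78 and 0.68, adjusted p = 0.091 and 0.15). In replicate 1, Me1 (245 CPM), Tkt (150 CPM), G6pdx (147 CPM) and Taldo1 (142 CPM) were each the highest of the 9 day 1 libraries, and Pgd (297 CPM) was not. The other replicates of the group measured 112 and 109 CPM for Me1, 102 and 95.3 CPM for G6pdx, and 104 and 127 CPM for Taldo1. The part of the adipocyte transcripts in these values was not tested.

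**Figure D3:**
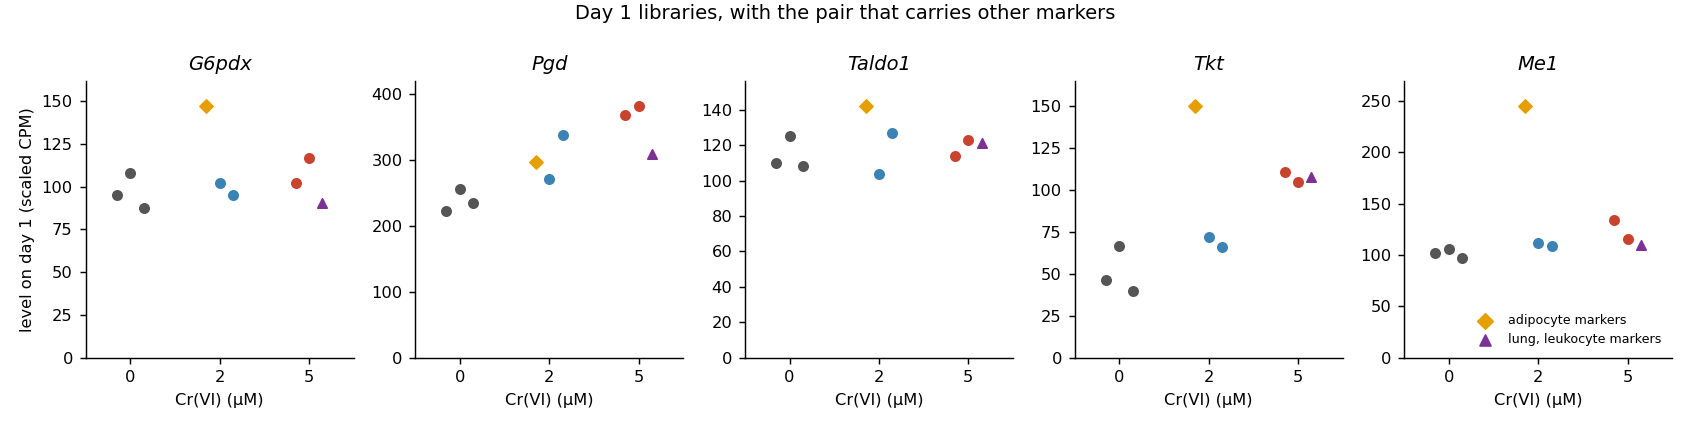
Scaled CPM of the 5 enzymes in the 9 day 1 libraries by Cr(VI) dose, with the 2 libraries that hold extra transcripts marked. Replicate 1 at 2 µM is the highest library for Me1 (245 CPM), Tkt (150 CPM), G6pdx (147 CPM) and Taldo1 (142 CPM).

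On day 2 at 2 µM, limma called 0 of the 5, against 0.51% of all genes called in either direction, and edgeR and DESeq2 called 0 as well. Pgd and Tkt, 2 of the 5, had an unadjusted p below 0.05. Tkt measured 22.8, 30.1 and 32.8 CPM against 18.0, 16.3 and 19.4 CPM, groups that did not overlap (0.63, adjusted p = 0.19), and was called without the 2 libraries with extra transcripts (adjusted p = 0.036).

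Between the doses themselves, 4 enzymes were higher at 5 than at 2 µM on day 4. The differences were 2.08 for Tkt (limma adjusted p = 2.1e-10), 1.41 for Pgd (adjusted p = 2.5e-13), 0.49 for Taldo1 (adjusted p = 1.0e-04) and 0.45 for G6pdx (adjusted p = 0.0033), against 22.8% of all genes called higher. Me1 differed by 0.30 (adjusted p = 0.14), and by 0.30 with an adjusted p of 0.011 without the 2 libraries with extra transcripts. On day 2, Tkt (0.96, adjusted p = 8.5e-04) and G6pdx (0.41, adjusted p = 0.024) were higher, against 4.64% of all genes. The G6pdx call was lost without replicate 3 at 2 µM (0.33, adjusted p = 0.15) or replicate 1 or 2 at 5 µM (0.41 and 0.37, adjusted p = 0.073 and 0.095). On day 1 limma called 0 of the 5, against 5.54% of all genes in either direction, as did edgeR and DESeq2, with 1 of the 5 at an unadjusted p below 0.05. Without replicate 1 at 2 µM, Tkt was called (0.64, adjusted p = 0.025), and without both libraries with extra transcripts it was not (0.64, adjusted p = 0.062).

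Levels ordered over the 10 groups put the 5 enzymes into different sequences. G6pdx ran with time: day 0 was highest (188 ± 6.65 CPM), the 3 day 1 groups came next and overlapped (96.9 to 115 CPM), then the day 2 groups (41.5 to 59.4 CPM) and the day 4 groups (16.7 to 28.9 CPM). Pgd was highest at 5 µM on day 4 (497 ± 55.9 CPM), apart from 5 µM on day 1 (352 ± 38.4 CPM), which overlapped day 0 (334 ± 36.1 CPM). Tkt was highest at 5 µM on day 1 (108 ± 3.24 CPM), 2 µM on day 1 (95.8 ± 46.7 CPM) and 5 µM on day 4 (80.4 ± 7.46 CPM), neighbours that overlapped, and lowest without Cr(VI) on day 4 (10.6 ± 1.98 CPM). For Taldo1 only 5 µM on day 4 (163 ± 16.0 CPM) stood clear, and the other 9 group means lay from 102 to 124 CPM with overlap between each neighbouring pair. For Me1 every group overlapped its neighbour, from 155 ± 77.8 CPM at 2 µM on day 1 to 70.8 ± 8.69 CPM without Cr(VI) on day 4. The 2 µM day 1 means include the library with adipocyte transcripts, at 245 CPM for Me1, 150 CPM for Tkt and 147 CPM for G6pdx. The other replicates of that group measured 112 and 109 CPM for Me1, 71.8 and 66.0 CPM for Tkt, and 102 and 95.3 CPM for G6pdx. The ordering was not repeated without that library. Per kilobase of the longest coding transcript, which allows genes to be compared, day 0 ran from Pgd (151 CPM per kb) through Taldo1 (81.5), G6pdx (70.9) and Me1 (40.1) to Tkt (18.4). At 5 µM on day 4 G6pdx was last, at 10.9 CPM per kb, below Tkt at 24.9 CPM per kb.

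Ratios within a library do not depend on its scaling. Tkt per G6pdx was 0.316 ± 0.0489 on day 0, 0.632 ± 0.0985 without Cr(VI) on day 4, and 2.78 ± 0.213 at 5 µM on day 4. Pgd per G6pdx was 1.78 on day 0, and on day 4 it was 8.96 without Cr(VI) and 17.2 ± 1.68 at 5 µM. Taldo1 per Tkt was 1.88 on day 0, 11.0 ± 2.16 without Cr(VI) on day 4 and 2.03 ± 0.0667 at 5 µM on day 4. Between 5 and 0 µM, Tkt per G6pdx differed 2.05-fold on day 1, 2.19-fold on day 2 and 4.43-fold on day 4. Each of these, and of the other ratios on days 1 and 4, reached the smallest two-sided p that an exact permutation of 3 against 3 libraries can give, 0.1, so a design of this size could not pass 0.05. Pgd per G6pdx on day 2 differed 1.0-fold (exact permutation p = 1.0).

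**Figure D4:**
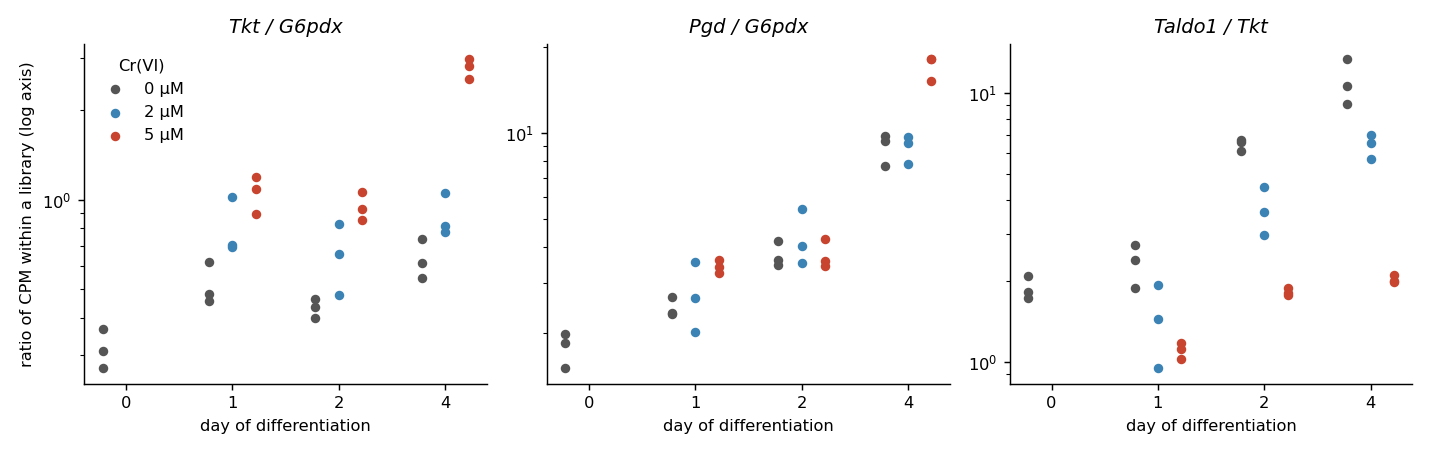
Ratios of CPM within each library (points, log axis) by day and Cr(VI) dose for Tkt per G6pdx, Pgd per G6pdx and Taldo1 per Tkt. At day 4 the 5 µM libraries are apart from the 0 µM libraries in all 3 ratios, with Tkt per G6pdx at 2.78 ± 0.213 against 0.632 ± 0.0985.

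Other genes of the same pathway were mostly not called. Of 10 further pentose phosphate genes, 7 passed the filter on low values (at least 1 CPM in at least 3 libraries). At 5 µM on day 4, 1 was higher, 1 lower and 5 not called, with a median of -0.01, the same as over all genes, of which 55.8% were called in either direction. The higher one was Shpk (sedoheptulokinase), at a low level of 2.19 ± 0.794 against 0.5 ± 0.787 CPM (1.18, limma adjusted p = 0.018). The lower one was Pgls, the lactonase between G6pdx and Pgd, at 29.4 ± 2.52 against 47.0 ± 21.9 CPM (-0.56, adjusted p = 0.017). Calls of the 7 were not repeated with single libraries left out. By edgeR and DESeq2, 1 of the 7 was called, and without the 2 libraries with extra transcripts limma called 1 higher and 2 lower. H6pd, the dehydrogenase of the endoplasmic reticulum, changed by -0.42 (adjusted p = 0.16). The pentose phosphate isomerase Rpia (0.18), the epimerase Rpe (-0.02) and the ribose-phosphate kinases Prps1 (0.23) and Prps2 (-0.01) were not called. Tktl1 and Tktl2 were at 0 in both groups, and G6pd2 did not exceed 0.0521 CPM in any library. On day 1, limma, edgeR and DESeq2 each called 0 of the 7, with changes from -0.15 to 0.33 and 0 at an unadjusted p below 0.05, where limma called 13.7% of all genes. On day 2 the same tools called 0 of the 7, with changes from -0.43 to 0.19 and 1 at an unadjusted p below 0.05, where 23.7% of all genes were called. During differentiation without Cr(VI), 4 of the 7 were lower on day 4 than on day 0, Prps2 (-1.55), Prps1 (-0.83), Rpe (-0.77) and Rpia (-0.58), and 3 were not called, where 59.8% of all genes were called in either direction.

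Among 12 other NADPH-producing enzymes and NAD kinases, 3 were higher at 5 µM on day 4, 6 lower and 3 not called, with a median of -0.30. In this comparison limma called 27.3% of all genes higher and 28.6% lower, and the lists that follow are to be read against these shares. The higher ones were Nadk (0.86), which makes NADP+ in the cytosol, its mitochondrial counterpart Nadk2 (0.39) and the cytosolic isocitrate dehydrogenase Idh1 (0.30). The lower ones were led by mitochondrial enzymes, Aldh1l2 of folate metabolism (-3.07), the malic enzyme Me3 (-1.94) and the transhydrogenase Nnt (-1.91). Nnt measured 33.1 ± 5.90 against 126 ± 2.83 CPM (limma adjusted p = 5.1e-16). Of 8 genes of malate and citrate exchange, which move the substrates of Me1, 0 were higher and 5 lower, among them Slc25a10 (-1.70), Slc25a11 (-1.27) and Slc25a1 (-1.19), with a median of -0.75. Me1 itself was higher in the same libraries.

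Of 12 reductases and related enzymes that draw on NADPH, 7 were higher, 2 lower and 3 not called (median 0.64). Of all genes, 27.3% were called higher. Nqo1, a quinone reductase, measured 54.7 ± 5.31 against 6.35 ± 2.36 CPM (2.96, limma adjusted p = 7.3e-15). Txnrd1, the cytosolic thioredoxin reductase, changed by 1.71, Gsr, the glutathione reductase, by 1.00, and Hmox1, a haem oxygenase, by 1.43. Mitochondrial Txnrd2 (-0.66) was among the lower ones. Of 8 genes that form or regulate the NRF2 complex, 7 were higher, 0 lower and 1 not called (median 0.68), with Maff (1.81), Nfe2l2 (1.37, 321 ± 20.1 against 124 ± 6.32 CPM, adjusted p = 5.8e-15) and Mafg (0.96) in front. Keap1 (0.50) and the repressor Bach1 (0.38) were among the 7. At 2 µM on day 4, fewer were called. Of the 12 enzymes that draw on NADPH, 3 were higher and 0 lower (median 0.1). Without the 2 libraries with extra transcripts, 4 were higher and 1 lower. Of the 8 NRF2 genes, 2 were higher and 0 lower (median 0.14). Among those higher were Nqo1 (0.80), Nfe2l2 (0.38) and Txnrd1 (0.30) (limma adjusted p = 0.0058, 0.0041 and 0.019). In this comparison 8.84% of all genes were called in either direction and 5.11% were called higher.

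Between day 0 and day 4 without Cr(VI), 7 of the 12 NADPH-using enzymes were lower and 1 higher. Of all genes tested, 29.5% were called lower and 30.3% higher in this comparison. Nqo1 fell by 4.41, Txnrd1 by 1.79 and Gsr by 0.89, while Nfe2l2 changed by -0.08 (limma adjusted p = 0.44).

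Genes at the branch point with glycolysis split. Of 11 tested, 4 were higher at 5 µM on day 4, 4 lower and 3 not called, where 55.8% of all genes were called in either direction. Tigar, a phosphatase that lowers fructose 2,6-bisphosphate (1.03), the phosphofructokinase Pfkp (0.84) and the hexokinase Hk1 (0.83) were higher. The muscle phosphofructokinase Pfkm (-1.80), Hk2 (-0.77) and Gpi1 (-0.24) were lower. Of 8 genes of fatty acid and sterol synthesis, 4 were higher, led by Sqle (1.07), 3 lower, led by Dhcr7 (-1.72), and 1 not called (4 lower without the 2 libraries with extra transcripts). Of 10 genes of nucleotide synthesis, which uses the pathway's ribose phosphate, 2 were higher, 4 lower and 4 not called, with Rrm2 at -1.38 and Cad at -0.73. The 6 of 10 called are near the share over all genes.

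**Figure D5:**
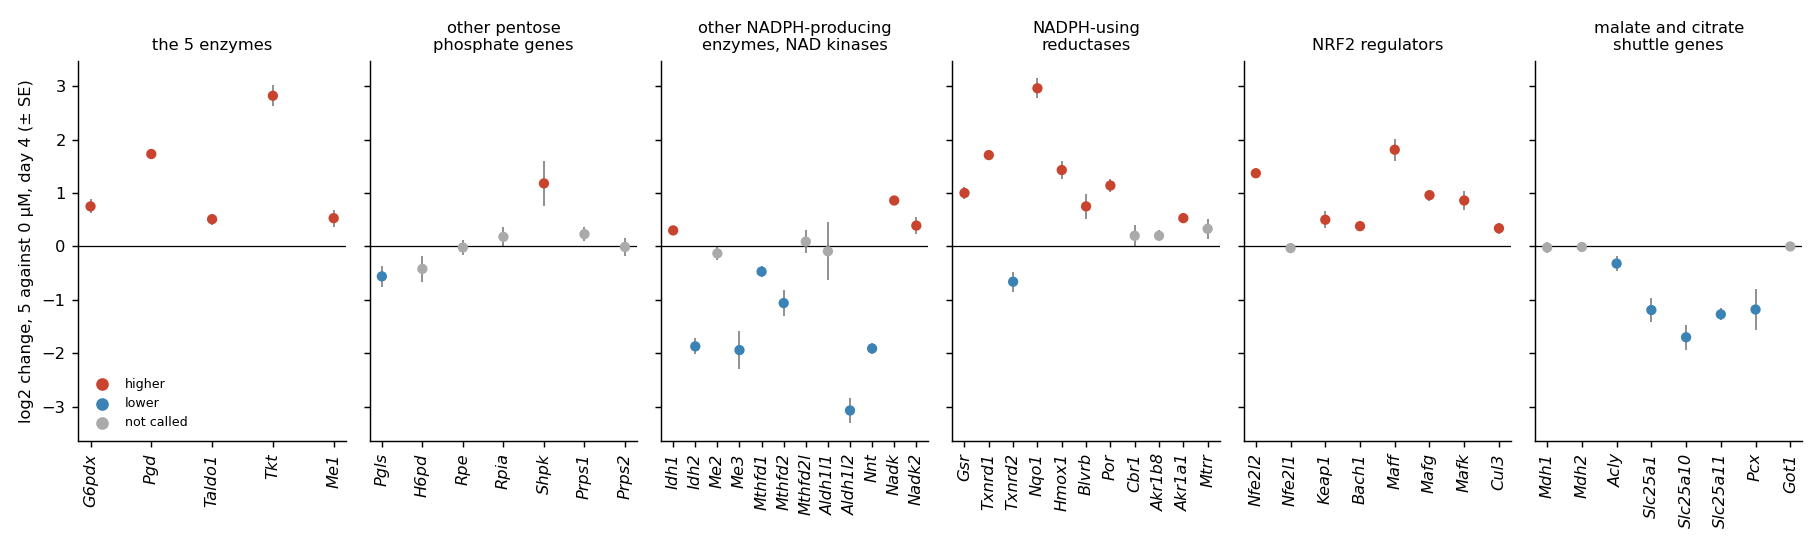
Log2 change at 5 µM against 0 µM Cr(VI) on day 4 for tested genes of 6 lists (points, with SE bars from limma), coloured by whether they were called higher, lower or not at all. All 5 enzymes lie above 0, and the other pentose phosphate genes lie on both sides of 0.

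Across the 30 libraries, Pgd and Tkt were the most alike pair of the 5 (Pearson r = 0.85 on log2 values), followed by Tkt and Me1 (0.80) and G6pdx and Me1 (0.75). Over the 28 libraries without extra transcripts these were 0.88, 0.83 and 0.79. G6pdx and Taldo1 were least alike (-0.14, and -0.23 over the 28). All share the same libraries and groups, so these are descriptions. Nearest patterns were sought over all 30 libraries, those with extra transcripts included, among 10046 genes with a mean of at least 5 CPM. Those nearest to G6pdx were of Nefl (0.976), Gja1 (0.965) and Hhip (0.964). Nearest to Pgd were Slc48a1 (0.925), Cbr3 (0.925) and Zfp703 (0.924), and to Tkt Plin2 (0.937), Car13 (0.934) and Vim (0.926). Me1 had Ero1l (0.871), Ak4 (0.852) and Sfxn1 (0.840), and Taldo1 had Rhod (0.789), Chchd2 (0.781) and Uck1 (0.775), the weakest likeness of the 5.

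Neither the strand of the libraries nor the treatment of reads that fit several genes is stated in the labels. Of the 50-base stretches of the longest coding transcript, 100% of Pgd and Tkt, 89.3% of G6pdx, 89.1% of Taldo1 and 67.2% of Me1 occurred in no other annotated transcript (GENCODE vM21). The level of Me1 is the least certain for that reason, since 24.3% of its stretches are shared with the annotated gene Gm7049, which the table does not list. G6pdx shares 418 of 3080 exon bases with Ikbkg on the opposite strand. Ikbkg measured 79.6 ± 9.17 CPM without Cr(VI) and 137 ± 12.0 CPM at 5 µM on day 4, and its part in the G6pdx values was not tested.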

How the data were processed

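Per the labels, RNA was isolated with TRIzol and sequenced from Illumina TruSeq libraries. The authors deposited 1 table with a signal per gene and library, named CPM in the labels. Not given in the sources used here: aligner, counter, genome build, strand and scaling. Dividing the deposited values by the smallest step of their library gave whole reads (100% within 0.02 reads), and 1 read was worth 0.038 to 0.0584 CPM. Columns summed to 892246 to 1079916, so a further scaling had been applied. Replicates differed by at least 9.68 chi-square units per degree of freedom, so no library was counted as a copy.

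Groups came from the titles. Genes with at least 1 CPM in at least 3 libraries (12946) entered limma 3.58.1 (R 4.3.3) as log2(CPM + 1). The model held 1 mean for each of 10 groups, used all 30 libraries and left 20 residual degrees of freedom, with variances moderated along their trend with mean level. Adjusted p-values are Benjamini-Hochberg over all genes tested, called below 0.05. SEs and 95% intervals come from the same fit. Alternatives were other filters, pseudocounts of 0.5 and 2, other scalings, edgeR 4.0.16 (quasi-likelihood) and DESeq2 1.42.0 on the recovered reads, a replicate term, robust variances, only the compared groups, and each library left out. The fit without the 2 day 1 libraries that held extra transcripts was added once the data had been seen. The fit was tested on simulated data.

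The members and lists were chosen with earlier results of these data known. Named from each list were up to 3 called genes with the largest rise and 3 with the largest fall at 5 µM on day 4, all other pentose phosphate genes, and Nfe2l2, Keap1, Bach1, Gsr, Txnrd1 and Nqo1. Also named are the 3 genes with the pattern most like each member. Lists are described by counts and medians, with no test. A gene that met this rule is not reported here.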

Additional observations from a re-analysis of the deposited data

Results flagged for a closer look

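The effect of 5 µM Cr(VI) differed between days, by a limma test of the difference of differences, for 4 of the 5 enzymes. Between days 2 and 4 it grew by 1.21 for Pgd (SE 0.14, adjusted p = 9.7e-08), by 0.69 for Taldo1 (SE 0.14, adjusted p = 3.3e-04) and by 1.23 for Tkt (SE 0.28, adjusted p = 0.0015) on the log2 scale. Between days 1 and 4 it grew by 0.67 for G6pdx (SE 0.18, adjusted p = 0.0037), by 1.17 for Pgd (SE 0.14, adjusted p = 1.1e-07), by 0.45 for Taldo1 (SE 0.14, adjusted p = 0.013) and by 1.71 for Tkt (SE 0.28, adjusted p = 1.5e-05). Of all genes, 12.5% were called for such growth between days 2 and 4 and 16.5% between days 1 and 4. The Taldo1 growth between days 1 and 4 was no longer called after quantile normalization (0.30, limma adjusted p = 0.13). For Taldo1 the effect was -0.18 on day 2, with each treated library below the untreated ones, and 0.51 on day 4, with each above them. The tests of days 2 and 4 and of days 1 and 4 share the day 4 libraries.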

How the results depend on the processing

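Of the called changes of the 5 enzymes, 0 reversed under the alternatives run, and other pseudocounts or robust variances moved 0 calls. Counts of the 5 enzymes called moved by more than 1.5 times in these cases, and smaller moves are not listed. At 2 against 0 µM on day 1 (1 called), 0 were called with no filter, with only the compared groups or without both libraries with extra transcripts, 2 after quantile normalization, 3 by DESeq2, and 0 to 3 with 1 library left out. At 2 against 0 µM on day 2 (0 called), 2 were called with only the compared groups and 1 without both libraries. At 2 against 0 µM on day 4 (2 called), 0 were called with no filter, 1 with median-of-ratios or TMM scaling, by edgeR, with the replicate block or with only the compared groups, and 0 to 2 with 1 library left out. From day 2 to day 4 at 2 µM (2 called), 1 was called with no filter, and 1 to 2 with 1 library left out. From day 1 to day 2 at 5 µM (3 called), 5 were called after quantile normalization. At 5 µM on day 4 against day 0 (3 called), 5 were called with only the compared groups or without both libraries. With 1 library left out, 1 to 2 were called from day 2 to day 4 without Cr(VI) and at 5 against 2 µM on day 2, and 0 to 1 at 5 against 2 µM on day 1. The cause was not tested. No pairing of samples by replicate number was seen, which does not exclude that some were paired. Deviations of same-numbered libraries from their group means correlated at -0.27 to 0.22 (median 0, with 11 of 135 pairs above 0.1). Those of other-numbered libraries correlated at -0.21 to 0.24 (median 0, with 23 of 270 pairs above 0.1). The replicate block left 132 of 135 results for single enzymes on their side of the threshold, with Pgd at 2 against 0 µM on day 4 lost (0.32) and Me1 gained from day 1 to day 2 without Cr(VI) (-0.44, limma adjusted p = 0.042) and at 5 µM on day 4 against day 0 (-0.36, limma adjusted p = 0.0467). Scaling moved the median of all genes by less than 0.1 in every comparison.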
